A study of Homo sapiens with 15 samples.

Results

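The matrix metalloproteinases (MMPs), the ADAMTS proteases and the tissue inhibitors of metalloproteinases (TIMPs) were followed in human induced pluripotent stem cells (hiPSCs), in the neural retina of retinal organoids (ROs) grown from them and in Müller glial cells expanded from the ROs (induced Müller glial cells, iMGCs). The genes were chosen by symbol alone: MMP or ADAMTS followed by a number, and TIMP1 to TIMP4. This gave 46 of the 19684 genes in the tables, namely 23 MMPs, 19 ADAMTS genes and 4 TIMPs. All libraries came from BC1-GFP, a hiPSC line that carries green fluorescent protein and is labelled wild type, and no group was treated with a drug. The groups were undifferentiated hiPSCs, ROs of day 70 (D70-ROs) and of day 150 (D150-ROs), of which the NR layers of 5 organoids were pooled per library, and iMGCs grown in a dish from dissociated D150-ROs and taken at passage 1 (P1 iMGCs) and passage 5 (P5 iMGCs). Each group had 3 poly(A) RNA-seq libraries with 11349600 to 20398755 expected counts.

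MMPs are zinc-dependent enzymes that are made as inactive precursors and, once activated, cut collagens, laminins, fibronectin and many surface proteins. Some are secreted, and the membrane-type MMPs stay anchored at the cell surface. ADAMTS proteases are secreted relatives with thrombospondin repeats that cut proteoglycans such as versican or trim procollagens, and TIMPs are small secreted proteins that block the active site of MMPs. In the retina, Müller glia span the tissue between its inner and outer limiting membranes, and matrix proteases are known there for remodelling around vessels, during migration and after injury.

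Expression is given as FPKM (fragments per kilobase of transcript and depth of mapped fragments), which allows levels to be compared between genes per length. Changes between groups were tested on the counts, and a gene was called higher or lower when its fold change was at least 2 at an adjusted p under 0.05. Log2 fold changes are given with their standard error (SE), and means with SD (n = 3). The FPKM scale and the count test place the middle of all genes differently. In P1 iMGCs against D150-ROs the median gene lay 0.58 lower on the log2(FPKM + 1) scale than in the count test, whereas it lay 0.11 higher in D70-ROs against hiPSCs and 0.22 higher in D150-ROs against D70-ROs. Increases in P1 iMGCs read from FPKM are therefore smaller than the fitted ones.

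The labelled cell types were set against their markers, and iMGCs went against part of theirs. The 7 fibroblast and mesenchymal markers summed to 2056 to 2155 FPKM in P1 and 2261 to 2524 in P5 iMGCs against 12.4 to 18.5 in D150-ROs, nearly all of it COL1A1, and 6 of 7 were called higher and PDGFRA lower in P1 iMGCs. The 5 pericyte and smooth muscle markers summed to 380 to 402 FPKM in P1 and 425 to 443 in P5 iMGCs against 26.6 to 29.2 in D150-ROs, with MYH11 below 0.1 in all 3 groups. Of the Müller glia markers, 7 were tested, VIM and CRYAB were higher in P1 iMGCs and RLBP1, GLUL, SOX9, NES and SLC1A3 lower. RLBP1, a defining marker, was at 33.5 ± 3.66 FPKM in D150-ROs, at 0 in P1 and at 0.03 ± 0.052 in P5 iMGCs, and AQP4 was at 0 in both. Photoreceptor markers summed to 843 to 967 FPKM in D150-ROs and to at most 0.56 in iMGCs. In D70-ROs the pluripotency markers summed to 5.98 to 8.96 FPKM against 3161 to 3344 in hiPSCs. The 4 astrocyte and optic stalk markers summed to 7.22 to 30.6 FPKM in D70-ROs, against 1.90 to 2.48 in hiPSCs and 5.30 to 6.07 in D150-ROs. Most of this was PAX2, at 17.3 ± 11.8 FPKM in D70-ROs, called higher than in hiPSCs (6.84, SE 0.68, adjusted p = 3.8e-06) and lower in D150-ROs (-2.81, SE 0.54, adjusted p = 0.00126). The part of these markers in the protease changes described here was not tested, and in bulk libraries fewer cells of a type and less RNA per cell cannot be told apart.

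Of the 46 genes, 34 reached a group mean of 1 FPKM somewhere and 13 reached 10 FPKM. Between 20 and 25 genes were at 1 FPKM or more in any 1 group, with 25 in hiPSCs and 20 in D150-ROs. The set of genes was not the same throughout. Among the 34, the highest mean was in hiPSCs for 11 genes, in D70-ROs for 2, in D150-ROs for 4, in P1 iMGCs for 8 and in P5 iMGCs for 9. The genes with the highest FPKM were MMP2 in hiPSCs and D150-ROs, TIMP2 in D70-ROs, and MMP14 in both iMGC groups.

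**Figure D1:**
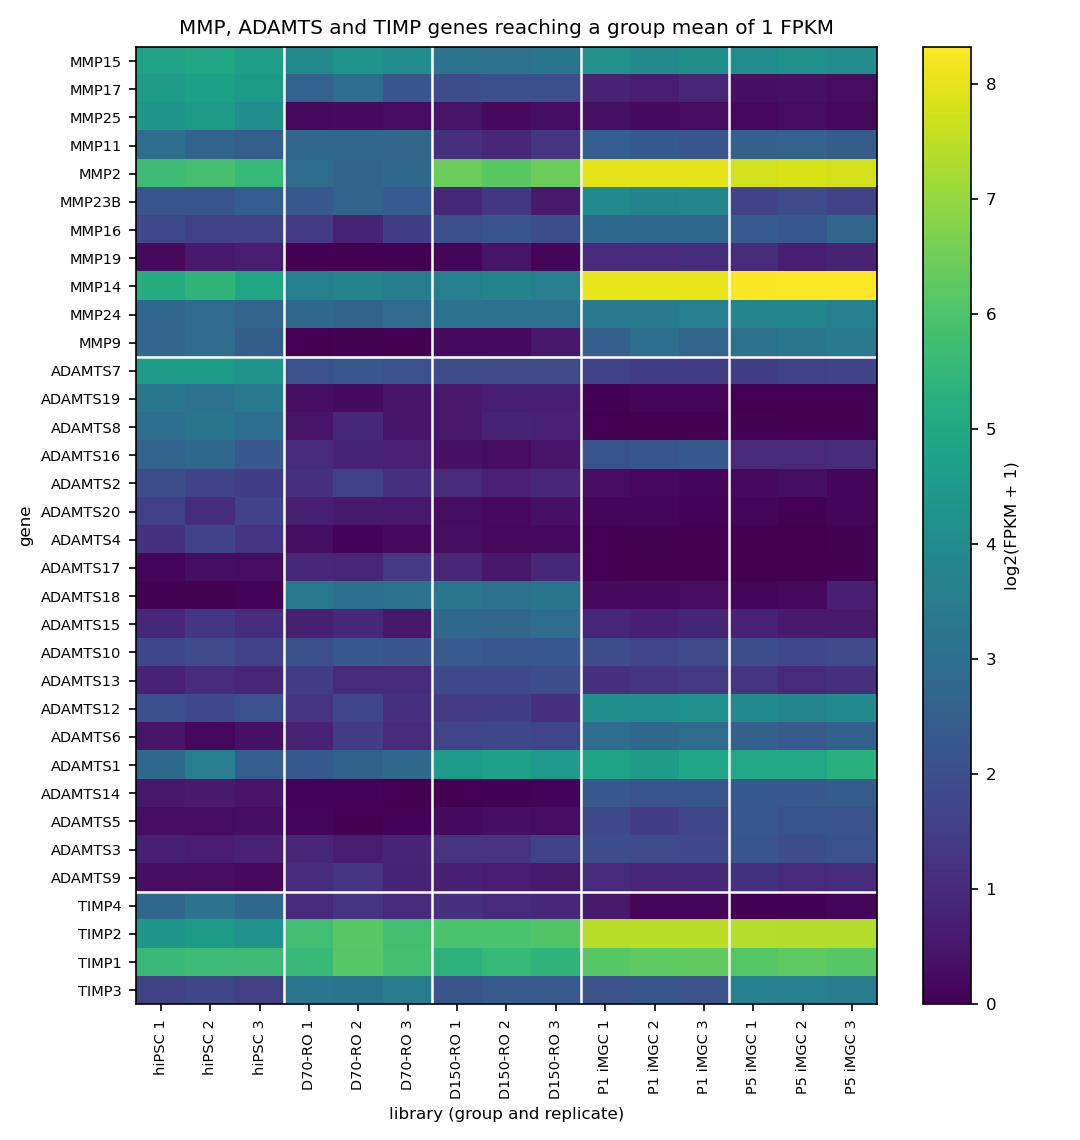
Expression of the 34 genes that reached a group mean of 1 FPKM, as log2(FPKM + 1), in each of the 15 libraries (columns), with MMPs, ADAMTS genes and TIMPs separated by white lines and ordered by the group in which they were highest. MMP14, MMP2 and TIMP2 are the brightest rows in the iMGC libraries, and MMP17, MMP25, ADAMTS7, ADAMTS8, ADAMTS19 and TIMP4 are brightest in hiPSCs.

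The first comparison asked what changed from hiPSCs to early ROs. More of the genes were lower than higher in D70-ROs: of 26 tested, 13 were called lower and 3 higher, and 10 were not called. Over all genes tested, 43.5% were called, 21.1% lower and 22.5% higher. The median log2 fold change was -0.98 for the 26 genes and 0.02 for all genes. MMP2, MMP9, MMP14, MMP17, MMP25, ADAMTS4, ADAMTS7, ADAMTS8, ADAMTS12, ADAMTS16, ADAMTS19, ADAMTS20 and TIMP4 fell, and ADAMTS18, TIMP2 and TIMP3 rose. Of the 26, 9 had a mean below 1 FPKM in one of the groups and could be tested only because they were high in the other, so these counts do not describe all 46 genes, and 8 of these 9 were called. With a filter of 0.1 FPKM, 34 genes were tested, 6 higher and 16 lower. Over all 15284 genes tested with that filter, 3630 were higher and 3419 lower. ADAMTS12 and ADAMTS20 were not called by limma on log2(FPKM + 1) (-0.59 and -0.81).

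From D70-ROs to D150-ROs, 22 genes were tested, 3 were called higher and 6 lower. All genes gave 33.3% called, 16.6% higher and 16.7% lower, and the medians were -0.18 for the 22 genes and -0.01 for all genes. MMP2, ADAMTS1 and ADAMTS15 rose, and MMP11, MMP15, MMP17, MMP23B, ADAMTS2 and TIMP3 fell. Of the 22, 4 had a mean below 1 FPKM in 1 of the groups (MMP23B, ADAMTS15, ADAMTS2 and ADAMTS3), and 3 of these were called. The split depended on the scale and the filter, with 7 higher and 4 lower by limma on log2(FPKM + 0.1), and 8 higher and 9 lower of 35 tested with a filter of 0.1 FPKM. Over all genes, limma on log2(FPKM + 0.1) gave 2816 higher and 1559 lower of 12855. The filter of 0.1 FPKM gave 2594 higher and 2606 lower of 15054. By limma on log2(FPKM + 1), MMP15 (-0.94), MMP17 (-0.59) and ADAMTS2 (-0.41) were not called. MMP17 and ADAMTS2 were no longer called without replicate 2 of the D70-ROs, the library with the fewest counts, and 5 genes were called higher without replicate 1 or without replicate 3 of that group, MMP16 and ADAMTS13 being added in both cases.

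Isolation and culture were compared next, as P1 iMGCs against the D150-ROs from which such cells are grown. Of the genes that passed the filter of 1 FPKM, 17 of 25 were called higher and 2 lower, against 20.0% higher and 24.1% lower (44.1% called) over all genes. With a filter of 0.1 FPKM, 20 of 39 were higher and 11 lower. Over all 14953 genes tested with that filter, 3014 were higher and 3976 lower. Of the 25, 9 had a mean below 1 FPKM in one of the groups, and 8 of these were called. The median was 1.65 for the 25 genes and -0.05 for all genes. MMP2, MMP9, MMP11, MMP14, MMP15, MMP16, MMP19, MMP23B, MMP24, ADAMTS3, ADAMTS5, ADAMTS6, ADAMTS12, ADAMTS14, ADAMTS16, TIMP1 and TIMP2 rose, and ADAMTS15 and ADAMTS18 fell. On log2(FPKM + 1), 11 genes were called higher and 3 lower by limma. The 6 genes whose rise was then under 2-fold were MMP15 (0.93), MMP16 (0.73), MMP19 (0.80), MMP24 (0.32), ADAMTS3 (0.54) and TIMP1 (0.78), and all but MMP19 were also under it on log2(FPKM + 0.1). Over all genes the split moved from 2581 higher and 3105 lower to 1329 and 4478. MMP2, MMP9, MMP14, ADAMTS12 and ADAMTS16 had been called lower in D70-ROs than in hiPSCs and were called higher here. The share of all genes with this pattern was not determined. MMP9 and ADAMTS16 had a mean below 1 FPKM in a group of both comparisons.

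Between P1 and P5 iMGCs few genes of any kind changed. Of 23 tested members, TIMP3 was called higher and MMP23B and ADAMTS16 lower, whereas 2.92% of all genes were called, 1.94% higher and 0.977% lower. The medians were 0.13 for the 23 genes and 0.00 for all genes.

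**Figure D2:**
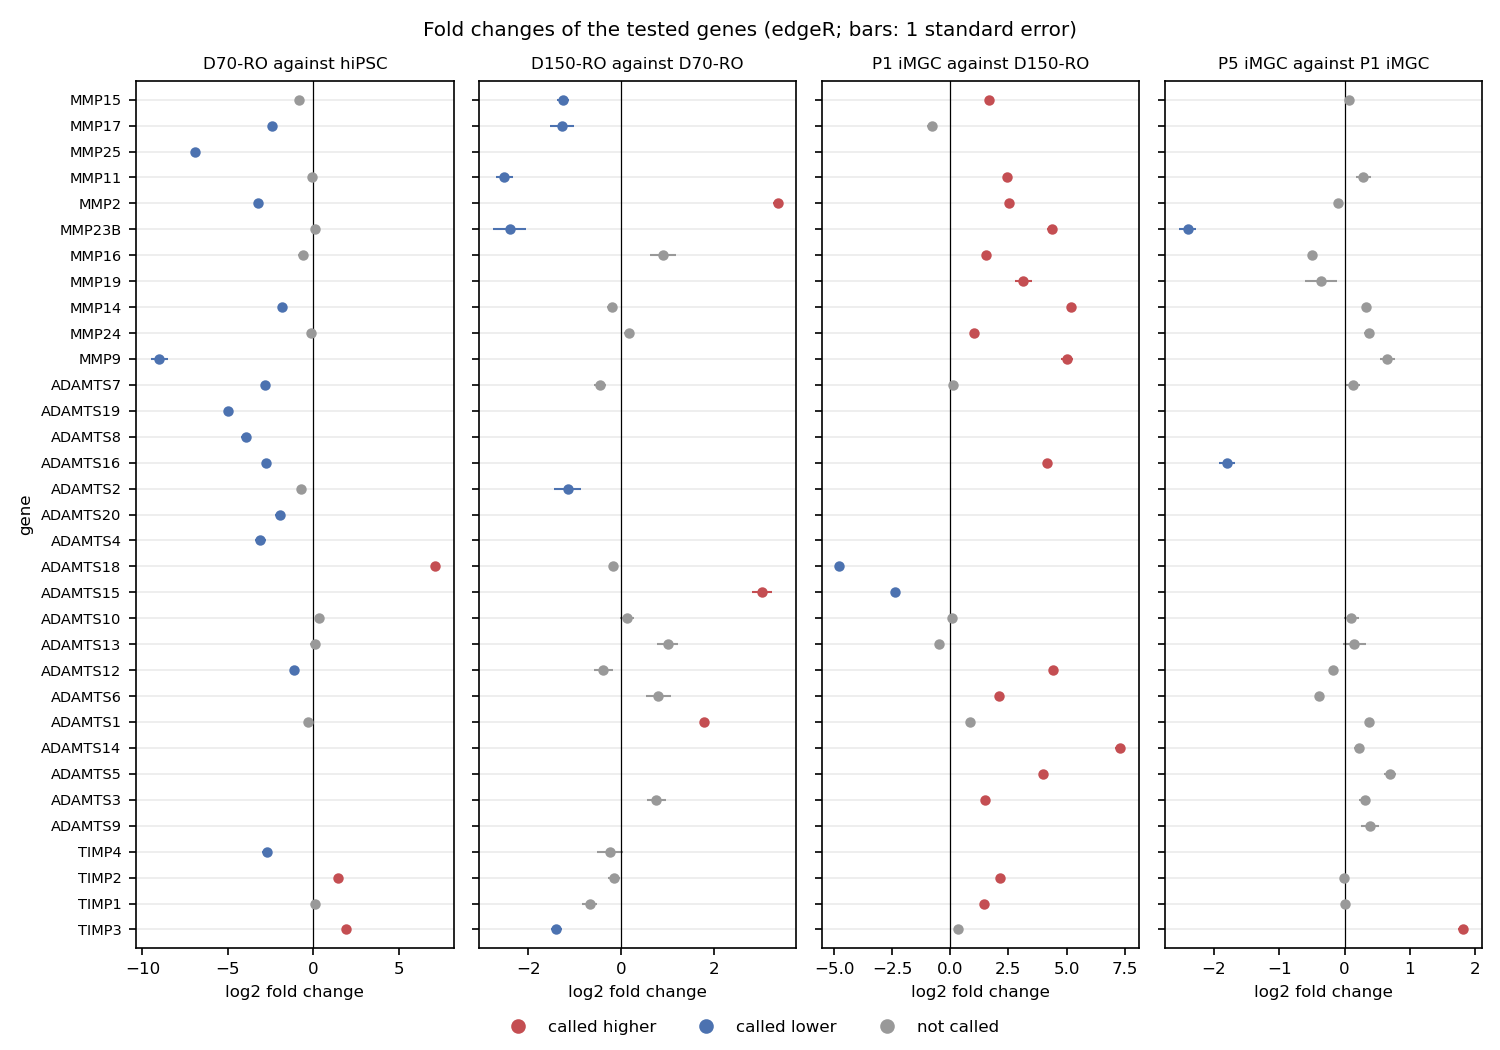
Log2 fold changes of the tested genes in the 4 comparisons, with bars of 1 SE and colours for called higher, called lower and not called. The horizontal axes differ between panels. Most points lie left of 0 in D70-ROs against hiPSCs and right of 0 in P1 iMGCs against D150-ROs, and 3 genes are coloured in P5 against P1 iMGCs.

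Membrane-type MMPs include MMP14, which cuts type I collagen at the cell surface and, together with TIMP2, activates the precursor of MMP2. MMP14 was at 34.8, 42.4 and 29.6 FPKM in the hiPSC libraries, 11.02, 12.16 and 10.22 at day 70, and 11.1, 12.1 and 10.9 at day 150. In P1 iMGCs it was at 258, 265 and 264 FPKM, and in P5 iMGCs at 306, 320 and 320. The ranges of both RO stages overlapped, every iMGC library was above every other library, and the P5 range lay above that of P1. MMP14 fell from hiPSCs to D70-ROs (log2 fold change -1.81, SE 0.16, adjusted p = 1.33e-06) and rose from D150-ROs to P1 iMGCs (5.17, SE 0.06, adjusted p = 6.59e-19). From P1 to P5 the difference was 0.33 (SE 0.04, adjusted p = 1.62e-07), under the 2-fold limit.

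MMP2 (gelatinase A) cuts denatured collagens and type IV collagen of basement membranes. Its FPKM was 52.4, 58.1 and 47.0 in hiPSCs, 6.65, 5.09 and 6.23 at day 70, and 84.2, 71.8 and 85.3 at day 150. P1 iMGCs had 250, 253 and 253 FPKM, and P5 iMGCs 217, 227 and 222. No group overlapped another, and the lowest level was in D70-ROs. The log2 fold changes were -3.25 (SE 0.13, adjusted p = 3.63e-09) in D70-ROs against hiPSCs, 3.36 (SE 0.10, adjusted p = 5.1e-08) in D150-ROs against D70-ROs and 2.52 (SE 0.05, adjusted p = 3.18e-16) in P1 iMGCs against D150-ROs. Unlike MMP14, MMP2 had thus already risen between both RO stages, where MMP14 differed by -0.19 (SE 0.11, adjusted p = 0.136).

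MMP9 (gelatinase B), the other gelatinase, was lower throughout. It was at 5.75, 6.44 and 4.51 FPKM in hiPSCs, at 0 to 0.04 at day 70 and at 0.18 to 0.44 at day 150. P1 iMGCs had 4.83, 6.96 and 5.61 FPKM and P5 iMGCs 7.82, 8.66 and 9.83, so that P1 iMGCs overlapped the hiPSC range and P5 iMGCs lay above it. The D70-RO libraries held 1 count against 770 in hiPSCs, which gave a 95% counting interval of -14.77 to -6.98 for the log2 ratio. The rise in P1 iMGCs was 5.02 (SE 0.26, adjusted p = 2.97e-11). Of the exonic bases of MMP9, 18.4% are shared with an antisense gene on the opposite strand, and the library strand setting is not given in the sources used here.

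The other membrane-type MMPs are held in the membrane in different ways. MMP15, MMP16 and MMP24 have a transmembrane segment, as MMP14 does, and were called higher in P1 iMGCs than in D150-ROs. MMP15 was at 23.6 to 28.8 FPKM in hiPSCs, 14.7 to 18.8 at day 70, 7.52 to 8.41 at day 150, 14.4 to 17.3 in P1 iMGCs and 15.6 to 17.2 in P5 iMGCs. It fell from D70-ROs to D150-ROs (-1.26, SE 0.13, adjusted p = 2.57e-05) and rose in P1 iMGCs (1.65, SE 0.07, adjusted p = 4.66e-12), and neither difference reached 2-fold on log2(FPKM + 1). The fall was -0.77 with the trend on gene length and GC content removed. MMP24 changed little, from 5.58 to 6.60 FPKM in hiPSCs, 5.47 to 6.44 at day 70 and 7.63 to 7.98 at day 150 to 9.53 to 10.97 in P1 and 11.16 to 13.28 in P5 iMGCs. Its rise in P1 iMGCs sat at the 2-fold limit (1.00, SE 0.07, adjusted p = 2.09e-09), and was under it by limma on log2(FPKM + 1) (0.32) and on log2(FPKM + 0.1) (0.35), with upper-quartile scaling (0.89), with DESeq2 (0.998), and without replicate 2 or 3 of the D150-ROs or replicate 3 of the P1 iMGCs (from 0.93). MMP24 shares 18.1% of its exonic bases with MMP24OS on the opposite strand. MMP16 had a mean of 3.22 ± 0.35 FPKM in D150-ROs and 6.00 ± 0.142 in P1 iMGCs (log2 fold change 1.54, SE 0.07, adjusted p = 9.85e-12), which was 0.73 on log2(FPKM + 1) and not called there.

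MMP17 and MMP25 are held by a lipid anchor and were highest in hiPSCs. MMP25 was at 19.7, 22.2 and 16.0 FPKM in hiPSCs and at 0.13 to 0.40 in the 12 other libraries. Its fall to D70-ROs was -6.94 (SE 0.23, adjusted p = 1.23e-09). MMP25 shares 35.2% of its exonic bases with the antisense gene MMP25-AS1, and reads from the shared bases cannot be told apart without strand. MMP17 was at 22.5, 25.4 and 22.2 FPKM in hiPSCs, 5.13, 7.02 and 3.63 at day 70, 3.02, 3.05 and 3.06 at day 150, 0.73, 0.58 and 0.85 in P1 iMGCs, and 0.27, 0.31 and 0.20 in P5 iMGCs. The 5 ranges did not overlap, and each was below the one before. MMP17 fell in D70-ROs (-2.40, SE 0.23, adjusted p = 2.69e-06) and in D150-ROs (-1.28, SE 0.27, adjusted p = 0.00207), the latter being -0.59 on log2(FPKM + 1). For P1 iMGCs the count test gave -0.81 (SE 0.21, adjusted p = 0.00249), not called, and limma on log2(FPKM + 1) gave -1.24 (adjusted p = 9.8e-07).

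**Figure D3:**
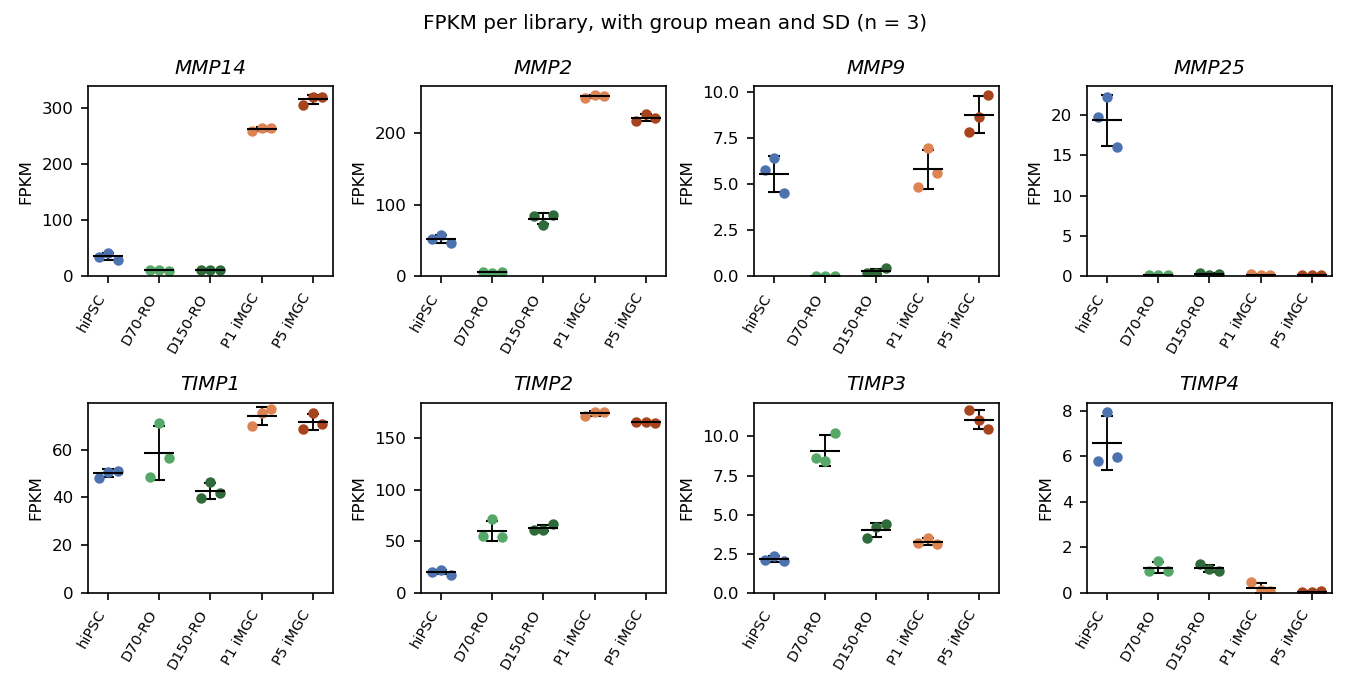
FPKM of 4 MMP genes and the 4 TIMP genes by group; dots are the 3 libraries, lines the mean and bars the SD. MMP14 and MMP2 are above 200 FPKM in all iMGC libraries, MMP25 and TIMP4 are highest in hiPSCs, and TIMP3 is near 3 FPKM in P1 and near 11 in P5 iMGCs.

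Among the remaining MMPs that were expressed, MMP23B, MMP11 and MMP19 changed most. MMP23B, a membrane-bound MMP without the usual carboxy-terminal domain, was at 3.57 to 4.67 FPKM in hiPSCs, 3.99 to 5.34 at day 70 and 0.51 to 1.54 at day 150. P1 iMGCs had 14.6, 12.6 and 13.6 FPKM, and P5 iMGCs 2.27, 2.86 and 2.05. It therefore stood out in P1 iMGCs, being called higher than in D150-ROs (4.38, SE 0.21, adjusted p = 1.55e-11) and higher than in P5 iMGCs (P5 against P1 -2.40, SE 0.13, adjusted p = 5.44e-13). MMP23B has a near-identical copy, MMP23A, that is not analysed here, and reads could have been shared between them, so its values are uncertain. MMP11 (a stromelysin that furin activates inside the cell) had means of 5.61 ± 1.16 FPKM in hiPSCs, 5.86 ± 0.0737 at day 70, 1.19 ± 0.234 at day 150, 4.14 ± 0.437 in P1 iMGCs and 4.84 ± 0.373 in P5 iMGCs. Its drop in D150-ROs was -2.51 (SE 0.19, adjusted p = 4.61e-06) and its rise in P1 iMGCs 2.43 (SE 0.17, adjusted p = 2.35e-09). MMP19 rose from 0.193 ± 0.162 FPKM in D150-ROs to 1.07 ± 0.0643 in P1 iMGCs (3.14, SE 0.38, adjusted p = 1.32e-06), was not called on log2(FPKM + 1) (0.80), and had no count in D70-ROs. Of its exonic bases, 17.4% are shared with the pseudogene TMEM198B on the opposite strand.

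Most secreted collagenases, stromelysins and matrilysins were close to absent. A cluster of 9 MMP genes lies on chromosome 11 between 102520508 and 102955734 (GRCh38, GENCODE 29): MMP7, MMP20, MMP27, MMP8, MMP10, MMP1, MMP3, MMP12 and MMP13, which include the collagenases, both other stromelysins and the macrophage elastase MMP12. The highest FPKM of any of them in any library was 0.60 (MMP7, D150-ROs), and the highest group mean was 0.38 (MMP10, D150-ROs). MMP12 and MMP20 had no count in any of the 15 libraries. MMP1, the interstitial collagenase, had 18 counts in P1 and 35 in P5 iMGCs against 2 to 3 in each other group. MMP10 had 29 counts in D150-ROs, none in D70-ROs and 1 in P1 iMGCs. MMP21, MMP26 and MMP28 were also below 1 FPKM in every group, so that 12 of the 46 genes never reached it. At this depth such genes can only be called near the limit of detection, and none passed the filter for the test.

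Promoter windows of RefSeq (GRCh38.p14, 250 bases before to 50 after the start site given there) were found for 27 of the 46 genes. For MMP8, MMP11, ADAMTS13 and TIMP4 the whole window lies inside the GENCODE 29 gene, away from its outermost start. The window of TIMP1 begins before its gene, but the 120 bases printed for it lie inside the gene. The windows are shown for expressed and near-absent genes, which differed in base composition. Of the 7 near-absent genes with a window, 5 lie in the chromosome 11 cluster, so this difference is largely that of 1 locus from the rest. The last 120 bases before the start are printed, with CG dinucleotides and the letters TGANTCA in capitals. TGANTCA matches on both strands whatever base stands at N. It is wider than the form bound by AP-1 (FOS and JUN) proteins, which has G or C at N.
MMP14, chr14:22836465-22836584, plus strand: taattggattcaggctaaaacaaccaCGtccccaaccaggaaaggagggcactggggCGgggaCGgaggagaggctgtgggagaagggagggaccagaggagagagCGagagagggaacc
TIMP1, chrX:47582316-47582435, plus strand: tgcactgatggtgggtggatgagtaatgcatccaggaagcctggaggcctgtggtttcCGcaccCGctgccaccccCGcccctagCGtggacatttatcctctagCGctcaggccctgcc
TIMP3, chr22:32801585-32801704, plus strand: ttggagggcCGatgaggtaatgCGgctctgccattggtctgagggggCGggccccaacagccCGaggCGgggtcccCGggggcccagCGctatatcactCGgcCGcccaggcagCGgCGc
ADAMTS18, chr16:77435035-77435154, minus strand: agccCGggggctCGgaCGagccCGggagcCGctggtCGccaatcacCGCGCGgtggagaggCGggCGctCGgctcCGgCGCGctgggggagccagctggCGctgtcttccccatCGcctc
MMP7, chr11:102530748-102530867, minus strand: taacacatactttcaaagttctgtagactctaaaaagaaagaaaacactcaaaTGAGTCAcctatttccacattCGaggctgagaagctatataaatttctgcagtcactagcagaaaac
MMP8, chr11:102724955-102725074, minus strand: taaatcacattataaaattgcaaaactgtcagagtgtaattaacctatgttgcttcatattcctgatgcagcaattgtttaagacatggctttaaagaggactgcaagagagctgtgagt
MMP10, chr11:102780629-102780748, minus strand: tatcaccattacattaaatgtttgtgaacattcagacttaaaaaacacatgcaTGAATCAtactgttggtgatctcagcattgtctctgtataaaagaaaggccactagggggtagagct
Among the expressed genes, the 120 bases of ADAMTS18 hold 17 CG dinucleotides, those of TIMP3 11, those of TIMP1 5 and those of MMP14 4. Of the near-absent genes, MMP7 holds 1, and MMP8 and MMP10 hold none. Over the whole window, the 20 matched genes that reached 1 FPKM had a median of 28 CG dinucleotides (range 7 to 47), and the 7 that did not had a median of 2 (range 0 to 10). The median over 14868 promoters of genes in the tables was 22, and over all 35116 promoters 14. MMP14, with the highest FPKM of all, had 10, no more than MMP21. TGANTCA was present in 1 of the 20 (ADAMTS12) and in 3 of the 7 (MMP7, MMP10 and MMP20, all in the cluster), compared with 7.71% of all promoters. In MMP7 and MMP10 the match begins 67 bases before the start, with G at N in MMP7 and A at N in MMP10. These matches are descriptions of letters, and no binding was measured. All 9 genes on a list of AP-1 and ETS genes were expressed and tested in P1 iMGCs against D150-ROs. FOSL1, FOSL2, JUNB, ETS1 and ETS2 were higher and FOS lower, against 20.0% higher and 24.1% lower over all genes. Whether their products act on these promoters was not tested.

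**Figure D4:**
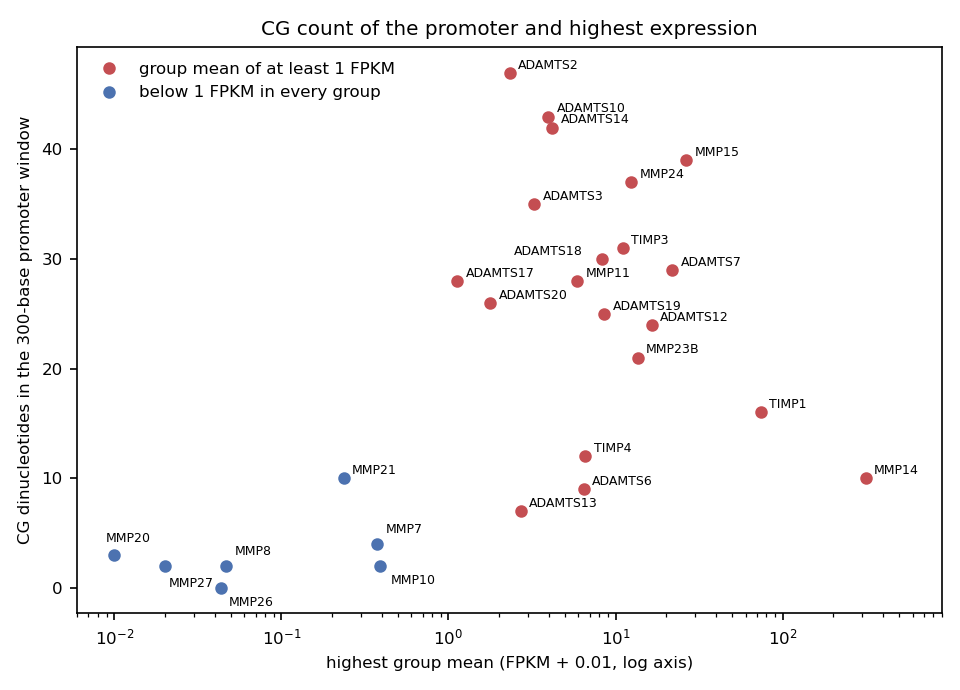
Number of CG dinucleotides in the promoter window of 27 genes against the highest group mean of the gene (FPKM + 0.01, log axis), coloured by whether the gene reached 1 FPKM. The 7 genes below 1 FPKM, of which 5 lie in the chromosome 11 cluster, have 0 to 10 CG dinucleotides, and the 20 others 7 to 47.

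ADAMTS proteases were mostly below 10 FPKM, and ADAMTS1, ADAMTS7 and ADAMTS12 were above it. ADAMTS1, which cuts versican and aggrecan, was at 6.34, 10.7 and 4.71 FPKM in hiPSCs, 4.18, 5.07 and 6.39 at day 70, and 22.0, 26.4 and 21.0 at day 150. P1 iMGCs had 26.9, 22.5 and 29.4 FPKM, and P5 iMGCs 30.7, 31.1 and 37.7. Its level rose between both RO stages (1.78, SE 0.10, adjusted p = 9.64e-07), with 0.86 (SE 0.06, adjusted p = 6.89e-10) in P1 iMGCs, under 2-fold. ADAMTS15, another versican-cleaving enzyme, was highest in D150-ROs, at 5.97, 6.10 and 6.81 FPKM against 0.46 to 1.56 in the 12 other libraries. It rose there (3.02, SE 0.22, adjusted p = 4.68e-06) and fell in P1 iMGCs (-2.39, SE 0.12, adjusted p = 1.54e-11). The aggrecanase ADAMTS5 was at 0.01 to 0.27 FPKM outside iMGCs and at 1.85 to 2.66 in P1 and 3.38 to 3.85 in P5 iMGCs (P1 against D150-ROs 3.98, SE 0.17, adjusted p = 4.5e-12).

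ADAMTS8, ADAMTS4 and ADAMTS20 of the same proteoglycan-cleaving group were highest in hiPSCs. ADAMTS8 was at 7.48 ± 0.588 FPKM there and at 0.56 ± 0.295 in D70-ROs (-3.95, SE 0.30, adjusted p = 3.96e-07), and its P1 iMGC libraries held 3 counts against 128 in D150-ROs, a log2 ratio between -7.12 and -3.25 (95% counting interval). ADAMTS4 and ADAMTS20 were at 1.64 ± 0.476 and 1.77 ± 0.554 FPKM in hiPSCs and below 1 in every other library. ADAMTS9 stayed between 0.17 and 1.42 FPKM in all libraries and was tested only in P5 against P1 iMGCs (0.40, SE 0.14, adjusted p = 0.0293).

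Of the procollagen N-proteinases, which trim the amino end of fibrillar procollagens, different members were expressed in different groups. ADAMTS2 was at 2.33 ± 0.506 FPKM in hiPSCs and 0.137 ± 0.0569 in P1 iMGCs. ADAMTS14 was at 0.01 to 0.05 FPKM in the RO libraries and at 3.99, 3.53 and 3.69 in P1 iMGCs (7.29, SE 0.21, adjusted p = 2.11e-14). ADAMTS3 went from 1.39, 1.39 and 2.05 FPKM in D150-ROs to 2.98, 2.72 and 2.58 in P1 iMGCs (1.49, SE 0.13, adjusted p = 2.16e-08), and was not called on log2(FPKM + 1) (0.54). COL1A1, which encodes one of their substrates, was at 2.77 ± 0.09 FPKM in D150-ROs and 2000.3 ± 53.5 in P1 iMGCs (10.36, SE 0.08, adjusted p = 6.7e-20).

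ADAMTS7 and ADAMTS12, close relatives that cut cartilage oligomeric matrix protein, were high in opposite groups. ADAMTS7 was at 23.5, 23.4 and 18.7 FPKM in hiPSCs, 3.15, 3.84 and 3.17 at day 70, 2.90, 2.84 and 2.84 at day 150, 2.22, 1.93 and 1.87 in P1 iMGCs, and 1.95, 2.15 and 2.20 in P5 iMGCs. ADAMTS12 was at 3.05, 2.62 and 3.28 FPKM in hiPSCs, 1.45, 2.38 and 1.24 at day 70, 1.75, 1.92 and 1.22 at day 150, 16.5, 16.1 and 16.9 in P1 iMGCs, and 14.8, 13.2 and 14.6 in P5 iMGCs. The hiPSC range of ADAMTS7 and the iMGC ranges of ADAMTS12 stood clear of all other groups. ADAMTS7 fell from hiPSCs to D70-ROs (-2.84, SE 0.15, adjusted p = 3.31e-08), and ADAMTS12 rose from D150-ROs to P1 iMGCs (4.43, SE 0.09, adjusted p = 4e-16).

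ADAMTS18, whose loss is known to disturb eye development, was higher in every RO library than in any other library. It was at 0.04 to 0.06 FPKM in hiPSCs, 9.36, 7.14 and 7.85 at day 70, 8.70, 7.83 and 8.29 at day 150, 0.16 to 0.21 in P1 iMGCs and 0.11 to 0.67 in P5 iMGCs. It rose in D70-ROs (7.15, SE 0.22, adjusted p = 7.84e-10) and fell in P1 iMGCs (-4.78, SE 0.13, adjusted p = 1.02e-14). ADAMTS17, like ADAMTS10 linked to fibrillin microfibrils, had means of 1.12 ± 0.402 FPKM in D70-ROs and 0.733 ± 0.248 in D150-ROs, and P1 iMGCs held none of its counts against 157 in D150-ROs, which is at least 34.8-fold lower with a floor of 3 counts over the group. ADAMTS10 differed little, with group means of 2.42 to 3.95 FPKM, and was called in none of the 4 comparisons.

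ADAMTS16 and ADAMTS19 were highest in hiPSCs, at 5.07 ± 1.02 and 8.55 ± 0.716 FPKM. ADAMTS19 then stayed between 0.01 and 0.64 FPKM. ADAMTS16 was at 0.22 to 0.42 FPKM in D150-ROs, came back to 3.28, 3.70 and 4.06 in P1 iMGCs (4.15, SE 0.18, adjusted p = 2.82e-12) and was at 0.98, 0.98 and 1.12 in P5 iMGCs (-1.80, SE 0.12, adjusted p = 1.52e-11). ADAMTS6, which acts on fibrillin microfibrils, was at 0.13 to 0.35 FPKM in hiPSCs and at 6.82, 6.00 and 6.55 in P1 iMGCs (against D150-ROs 2.08, SE 0.07, adjusted p = 3.37e-13). ADAMTS13, the von Willebrand factor protease, had group means of 0.90 to 2.70 FPKM, highest in D150-ROs, where its difference from D70-ROs was at the limit (1.00, SE 0.23, adjusted p = 0.00394) and was called with DESeq2 (1.01, adjusted p = 0.000309).

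TIMP1 and TIMP2 made up 87.5% to 98.7% of the summed TIMP FPKM in every library. TIMP1 was at 48.1, 50.8 and 51.1 FPKM in hiPSCs, 48.7, 70.9 and 56.3 at day 70, 39.9, 46.5 and 41.7 at day 150, 69.9, 75.4 and 77.0 in P1 iMGCs, and 68.7, 75.4 and 70.8 in P5 iMGCs. Its ranges overlapped in neighbouring groups except between D150-ROs and the groups around them, and its rise in P1 iMGCs was 1.44 (SE 0.07, adjusted p = 1.41e-11), which is 0.78 on log2(FPKM + 1) and not called there. TIMP2 was at 20.3, 22.0 and 17.9 FPKM in hiPSCs, 55.1, 71.5 and 54.6 at day 70, 61.2, 61.4 and 66.5 at day 150, 172, 176 and 176 in P1 iMGCs, and 166, 166 and 165 in P5 iMGCs. It rose in D70-ROs (1.44, SE 0.15, adjusted p = 6.18e-06), while MMP14 and MMP2 fell, and again in P1 iMGCs (2.12, SE 0.05, adjusted p = 1.21e-15).

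TIMP3, which binds to the matrix, also blocks ADAM and ADAMTS proteases and is mutated in a macular dystrophy, was at 2.12, 2.39 and 2.01 FPKM in hiPSCs, 8.65, 8.44 and 10.2 at day 70, 3.52, 4.20 and 4.38 at day 150, 3.19, 3.51 and 3.14 in P1 iMGCs, and 11.68, 11.03 and 10.47 in P5 iMGCs. Of the 3 TIMPs tested in P5 against P1 iMGCs, only TIMP3 was called (1.81, SE 0.07, adjusted p = 4.74e-16), and its P5 range lay above all other libraries. TIMP3 also rose in D70-ROs (1.93, SE 0.15, adjusted p = 5.25e-07) and fell in D150-ROs (-1.40, SE 0.12, adjusted p = 1.2e-05). TIMP4 was at 5.81, 7.97 and 5.97 FPKM in hiPSCs, 0.98, 1.39 and 0.97 at day 70, 1.26, 1.04 and 0.96 at day 150, 0.49, 0.11 and 0.10 in P1 iMGCs, and 0.03, 0.04 and 0.08 in P5 iMGCs. It fell in D70-ROs (-2.73, SE 0.25, adjusted p = 1.99e-06), and 10.3% of its exonic bases lie within exons of SYN2 on the opposite strand. TIMP4 was not tested in P5 against P1 iMGCs, where it had 4 against 19 counts.

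Summed over the families, the FPKM of the 23 MMPs was 181 ± 20.5 in hiPSCs, 57.0 ± 3.35 at day 70, 118 ± 6.48 at day 150, 572 ± 4.54 in P1 iMGCs and 589 ± 13.6 in P5 iMGCs. The 4 TIMPs summed to 78.8 ± 3.79, 129 ± 20.4, 111 ± 4.27, 252 ± 6.00 and 248 ± 3.52 in the same order. In D70-ROs every library had more TIMP than MMP transcript by this measure, as did replicate 2 of the D150-ROs (113 against 110.4 FPKM) and no other library. D70-ROs had a ratio of MMP to TIMP sums of 0.446 ± 0.0446, compared with 2.30 ± 0.183 in hiPSCs, 1.07 ± 0.0842 in D150-ROs, 2.27 ± 0.0368 in P1 and 2.37 ± 0.0409 in P5 iMGCs. MMP2 and MMP14 made up 89.8% ± 0.368 of the MMP sum in P1 iMGCs, 91.2% ± 0.108 in P5 iMGCs and 30.1% ± 1.77 in D70-ROs. Without these genes the ratio was 1.18 ± 0.0792 in hiPSCs and between 0.204 and 0.333 in every other library. A sum of transcripts says nothing about active enzyme, since MMPs need activation.

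**Figure D5:**
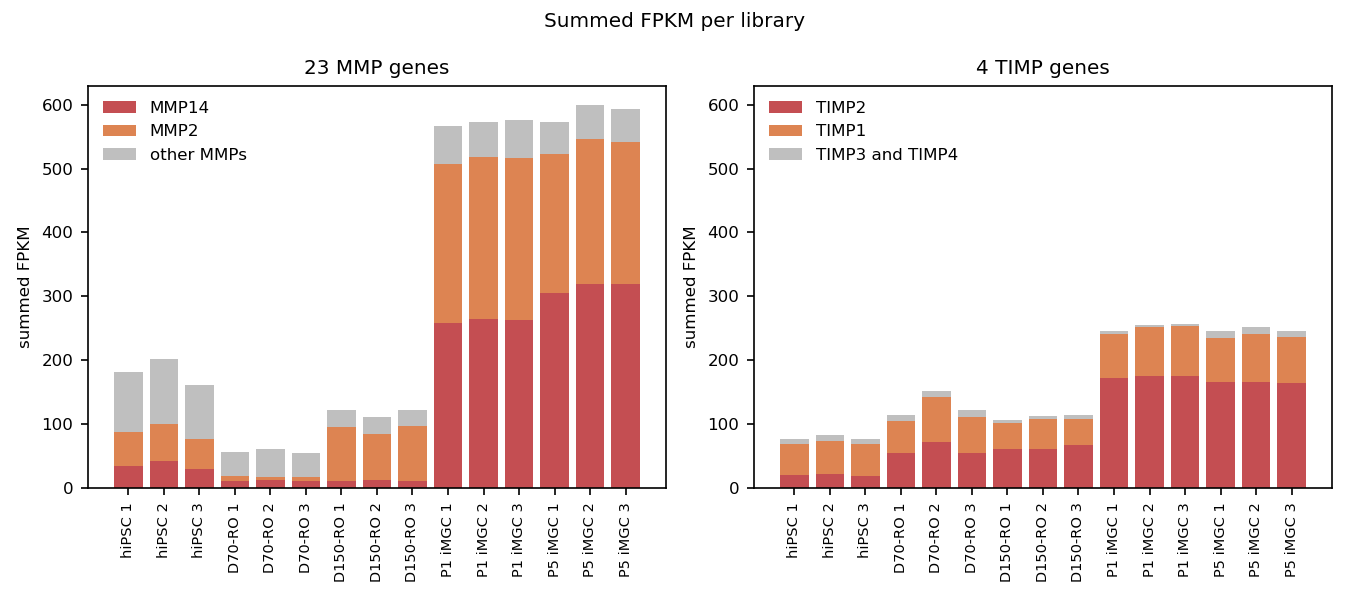
Summed FPKM of the 23 MMP genes (left) and the 4 TIMP genes (right) in each library, on the same vertical axis, with MMP14, MMP2, TIMP2 and TIMP1 coloured and the others in grey. The MMP bars of iMGCs reach 567 to 600 FPKM and are mostly MMP14 and MMP2, and the MMP bars of D70-ROs are below their TIMP bars.

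The genes around these proteases were read from lists. Of 11 genes of the plasminogen system, which activates several MMPs through plasmin, 7 of 8 tested were higher in P1 iMGCs than in D150-ROs and none lower. Over all genes, 20.0% were higher and 24.1% lower in this comparison, which is the background for each of the lists, and 22.5% higher and 21.1% lower in D70-ROs against hiPSCs. PLAU (urokinase) was at 166 ± 4.48 FPKM in P1 iMGCs against 0.73 ± 0.248 in D150-ROs (8.45, SE 0.10, adjusted p = 1.18e-18). From hiPSCs to D70-ROs, 6 of 9 tested were lower, PLAU by -6.58 (SE 0.22, adjusted p = 1.32e-09), and SERPINI1 was higher. ADAM sheddases, which release surface proteins, were higher in P1 iMGCs in 5 of 6 tested, with ADAM12 at 92.5 ± 4.48 against 1.96 ± 0.40 FPKM (6.00, SE 0.07, adjusted p = 8.23e-19). Of 8 matrix substrates tested, 7 were higher in P1 iMGCs, among them FN1 (fibronectin) at 8339.7 ± 191 against 8.95 ± 1.61 FPKM, and the neural proteoglycan gene NCAN was lower. In D70-ROs against hiPSCs, 6 of 8 were lower and NCAN was higher.

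Among the list of other inhibitors, activators and clearance receptors, RECK (a membrane inhibitor of MMPs), FURIN (which activates membrane-type MMPs), LRP1 (which takes up MMPs and TIMPs), THBS1, THBS2 and SPOCK1 were higher in P1 iMGCs, and PCSK6 and SPOCK2 lower, of 11 tested. The astacin protease BMP1, which trims the carboxy end of procollagens, was at 79.0 ± 1.63 FPKM in P1 iMGCs against 7.30 ± 0.558 (4.06, SE 0.06, adjusted p = 6.19e-18), and TLL1 and TLL2 were higher too, of 5 tested. Of 6 cathepsin and cystatin genes tested, CTSB, CTSL and CSTB were higher and CTSK and CTSV lower. The ADAMTS-like genes ADAMTSL1 and THSD4 were higher and ADAMTSL4 lower, of 4 tested. In P5 against P1 iMGCs, 1.94% of all genes were higher and 0.977% lower. SERPINE2 was higher of 8 plasminogen genes tested, TLL2 and PCOLCE of 5 astacin genes, and THBS1 of 8 in the list of other inhibitors. ADAMTSL4 and PAPLN were higher of 4 ADAMTS-like genes, and COL3A1 was lower of 7 matrix substrates. None of 7 ADAM sheddases or 5 cathepsin and cystatin genes was called. THBS1, a thrombospondin, was at 109 ± 0.133 FPKM in P1 and 311 ± 2.82 in P5 iMGCs (1.58, SE 0.03, adjusted p = 1.02e-20).

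Between pairs of libraries of a group, the mean chi-square per gene was 2.30 to 6.04 in iMGCs, 5.10 to 5.40 in D150-ROs and 6.94 to 32.2 in hiPSCs and D70-ROs, so no pair agreed within sampling noise (about 1). The sources differ on whether hiPSC and RO samples came from 2 or 3 independent experiments, so p-values measure the spread between these libraries, which may be technical. The series text also names a second company for sequencing without giving which samples it handled, and any batch cannot be told apart from the groups.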

How the data were processed

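The members, gene lists and comparisons were chosen with earlier results of these data known. Poly(A) RNA was sequenced in 15 libraries, 3 for each of 5 groups. Per the labels and the study's methods, the authors used HISAT2 for mapping of paired reads, StringTie for assembly and RSEM for quantification; versions and genome build are not given in the sources used here, and for co-analysis a correction between batches is mentioned, of which it is not known whether it is in the deposited values. The deposited tables hold expected counts per gene (8.21% to 10.05% of all values of a library, zeros included, were not whole) and FPKM, scaled by transcript length and mapped fragments. The hiPSC and RO libraries share 1 table and the iMGC libraries another, so P1 iMGCs against D150-ROs crosses tables; 12 further per-sample columns of a table without passage names, and columns of the authors' own comparisons (fold changes and p-values), were not used. All 19684 gene IDs matched GENCODE 29 (GRCh38), which gave names and positions.

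Expected counts were rounded. A gene entered a comparison if 3 or more of its 6 libraries had an FPKM of 1 or more. The test was edgeR 4.0.16 (R 4.3.3, TMM factors, quasi-likelihood F-test, two-sided) with Benjamini-Hochberg adjustment over all genes tested. Calls needed a fold change of 2 or more besides an adjusted p under 0.05. On simulated data, 99% to 100% of 200 genes changed 4-fold were recovered. Alternatives used DESeq2 1.42.0, limma 3.58.1 on log2(FPKM + 1) and log2(FPKM + 0.1), upper-quartile scaling, other filters, a test against a 2-fold change, all 15 libraries in 1 fit, a replicate block and leaving out each library; removal of a trend on gene length and GC content was added after seeing the data. Where a group held 3 counts or fewer, folds are bounds at a floor of 3 counts or exact 95% intervals, which cover counting error only. All members are accounted for; those reaching a group mean of 10 FPKM and all TIMPs are given per library.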

Additional observations from a re-analysis of the deposited data

How the results depend on the processing

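With the 6 numbered libraries of a comparison in a replicate block, 95 of 96 member values kept their direction and side of the threshold, and ADAMTS13 in D150-RO against D70-RO (1.00) passed 2-fold (1.02 with the block, adjusted p = 0.00549, edgeR). Same-numbered libraries correlated by -0.079 to 0.350 in their deviations from the group means. In D70-RO against hiPSC the values were 0.023, 0.350 and 0.137, and in no comparison was every pair over 0.1. With 3 libraries per group, such correlations cannot decide whether same-numbered libraries shared an experiment, which is not known.

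Counts of called members moved by more than 1.5 times in these cases. With every gene with a count, and with FPKM of at least 0.1, 6 members (main 3) were higher in D70-RO against hiPSC, 9 and 8 (main 3) were higher in D150-RO against D70-RO, and 11 (main 2) were lower in P1 iMGC against D150-RO. The genes added were those with an FPKM of 1 or more in fewer than 3 of the 6 libraries. Over all genes, the same filters gave 3686 of 17465 and 3630 of 15284 higher in D70-RO against hiPSC. They gave 2643 of 17251 and 2594 of 15054 higher in D150-RO against D70-RO. In P1 iMGC against D150-RO, 4167 of 17164 and 3976 of 14953 were lower. limma on log2(FPKM + 0.1) gave 7 higher and limma on log2(FPKM + 1) 3 lower (main 6) in D150-RO against D70-RO, and limma on log2(FPKM + 1) 11 higher (main 17) in P1 iMGC against D150-RO. Leaving out each library in turn gave 3 to 5 members higher in D150-RO against D70-RO.

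Members that were not called changed sign under some settings; the cause was not tested. In D70-RO against hiPSC, the value was 0.0215 for MMP11 with upper-quartile scaling, 0.0677 for MMP11 by limma on log2(FPKM + 1), 0.0806 for MMP11 by limma on log2(FPKM + 0.1) and 0.33 for MMP11 and 0.32 for MMP24 with the trend on gene length and GC content removed. In D150-RO against D70-RO, the value was 0.0277 for MMP14, 0.0308 for ADAMTS18 and 0.0713 for TIMP2 by limma on log2(FPKM + 1), 0.03 for MMP14, 0.0349 for ADAMTS18 and 0.0725 for TIMP2 by limma on log2(FPKM + 0.1) and 0.18 for MMP14, -0.0809 for MMP16, 0.46 for TIMP1 and 0.79 for TIMP4 with the trend on gene length and GC content removed. In P1 iMGC against D150-RO, the value was -0.36 for ADAMTS7, -0.45 for ADAMTS10 and -0.23 for TIMP3 by limma on log2(FPKM + 1), -0.49 for ADAMTS7, -0.57 for ADAMTS10 and -0.29 for TIMP3 by limma on log2(FPKM + 0.1) and -0.0594 for ADAMTS10 with upper-quartile scaling. In P5 iMGC against P1 iMGC, the value was -0.16 for ADAMTS13 and -0.0475 for TIMP1 by limma on log2(FPKM + 1), -0.27 for ADAMTS13 and -0.0481 for TIMP1 by limma on log2(FPKM + 0.1), -0.0001 for TIMP1 with all 15 libraries in 1 fit and -0.03 for TIMP1 with the trend on gene length and GC content removed. Leaving out each library in turn gave -0.19 to 0.12 for MMP11 in D70-RO against hiPSC, -0.0192 to 0.23 for MMP23B in D70-RO against hiPSC, -0.0536 to 0.24 for ADAMTS13 in D70-RO against hiPSC, -0.0985 to 0.23 for TIMP1 in D70-RO against hiPSC, -0.0052 to 0.11 for MMP15 in P5 iMGC against P1 iMGC, -0.0116 to 0.27 for ADAMTS13 in P5 iMGC against P1 iMGC and -0.0404 to 0.0574 for TIMP1 in P5 iMGC against P1 iMGC. Over all alternatives, 1450 fold changes of tested members kept their call, 32 fell under the threshold, 16 passed it and 38 changed sign. Tested against a 2-fold change, ADAMTS12 (D70-RO against hiPSC), MMP17 and ADAMTS2 (D150-RO against D70-RO) and MMP24 (P1 iMGC against D150-RO) were no longer called. With upper-quartile scaling the median gene moved by 0.097, -0.10, -0.12 and -0.003 in the 4 comparisons. Depth limits the 12 genes below 1 FPKM.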
